A study of Mus musculus with 60 samples.

Results

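Microglia of adult mice given lipopolysaccharide (LPS, a component of the bacterial outer membrane) were compared with microglia of neonatal mice, and both with microglia of adult mice given saline. The members were the 21 libraries whose titles name postnatal day 60 (P60) with LPS or postnatal day 4 (P4), out of 60 libraries in the series. These were 13 LPS libraries (6 titled female, 7 male) and 8 P4 libraries (4 of each sex). The 12 P60 saline libraries (7 female, 5 male) served as the resting reference. All animals were C57BL/6N. P4 animals were untreated, and the dose, route and time of LPS or saline were not given in the sources used here. Nothing in the labels ties every library to its own animal, so p-values measure the spread between libraries, which may be technical.

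Microglia are the resident macrophages of the brain. In the first postnatal days many are amoeboid, divide, and clear dying cells and debris, and with maturation they take on a branched form and a set of homeostatic surface genes. LPS acts through Toll-like receptor 4, which drives NF-kB and, through interferon regulatory factors, type I interferon. Inflammatory cytokines and interferon-induced antiviral genes are its textbook targets. The word activation is used for both conditions, and the comparison asks which activation genes neonatal and LPS-treated adult cells had in common and which belonged to 1 of them.

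Total counts per library ran from 1887699 to 3074195 at P4, from 804990 to 1401251 with LPS, and from 802016 to 3228801 with saline. The median was 2377525 at P4, 970080.0 with LPS and 2092799 with saline, and the lowest total was that of a saline library. The title and the sex characteristic disagreed for 2 P4, 3 LPS and 2 saline libraries, and the title was kept. Levels are counts per 1000000 counts (CPM) on TMM-scaled library sizes, given as the lowest, median and highest library of a state. Changes are log2 fold changes ± SE with the sexes averaged, and adjusted p-values are from edgeR's quasi-likelihood test with Benjamini-Hochberg adjustment over 12150 genes. The dates in the sample descriptions did not cross the states: P4 held 4 dates, LPS 3 and saline 3, and no date held libraries of different states. Date and state therefore cannot be told apart. In these bulk samples fewer cells of a type and less RNA per cell cannot be told apart either.

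The tissue label was checked against 35 homeostatic microglia genes. Their summed level was 13815 to 27758 CPM at P4, 41582 to 83134 with saline and 41830.3 to 69453 with LPS, so the P4 libraries lay below all adult ones. Tmem119, a surface marker of mature microglia, read 64.9, 96.1 and 158 CPM at P4, 890.0, 1323 and 2623 with saline, and 583, 1182 and 2465 with LPS. It was lower at P4 than with saline (-3.87 ± 0.27, adjusted p = 4.4e-14) and did not pass the test with LPS against saline (-0.26 ± 0.20, adjusted p = 0.41). Selplg, the ligand of P-selectin, read 73.1, 113 and 154 CPM at P4, 1248, 1804 and 3448 with saline, and 992, 1702 and 3812 with LPS, with no overlap between P4 and either adult state. Of the 35 genes, 33 were lower at P4 than with saline, and 5 were lower with LPS than with saline.

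RNA of other cells was present in every state. Summed neutrophil markers read 319 to 7862 CPM at P4, 452 to 7382 with LPS and 24.1 to 445 with saline, and exceeded 1000 CPM in 4 P4 and 5 LPS libraries and in no saline library. Summed monocyte markers read 1047 to 2525 CPM at P4, 899 to 2907 with LPS and 635 to 1320.1 with saline. Astrocyte and radial glia markers summed to 1811 to 3605 CPM at P4, 612 to 2192 with LPS and 294 to 2586 with saline. Choroid plexus and ependymal markers summed to far more, with medians of 28570 CPM at P4, 42557 with LPS and 50407 with saline. The saline libraries ran from 286 to 186293 CPM in that sum. Of 6 tested neuron markers, 6 were higher at P4 than with LPS, and Nefl and Neurod2 with saline and Neurod2 and Slc17a7 with LPS were at 0 in every library. The part of these cells in the results below was not tested, though values without the libraries rich in neutrophil markers are given for some genes.

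**Figure D1:**
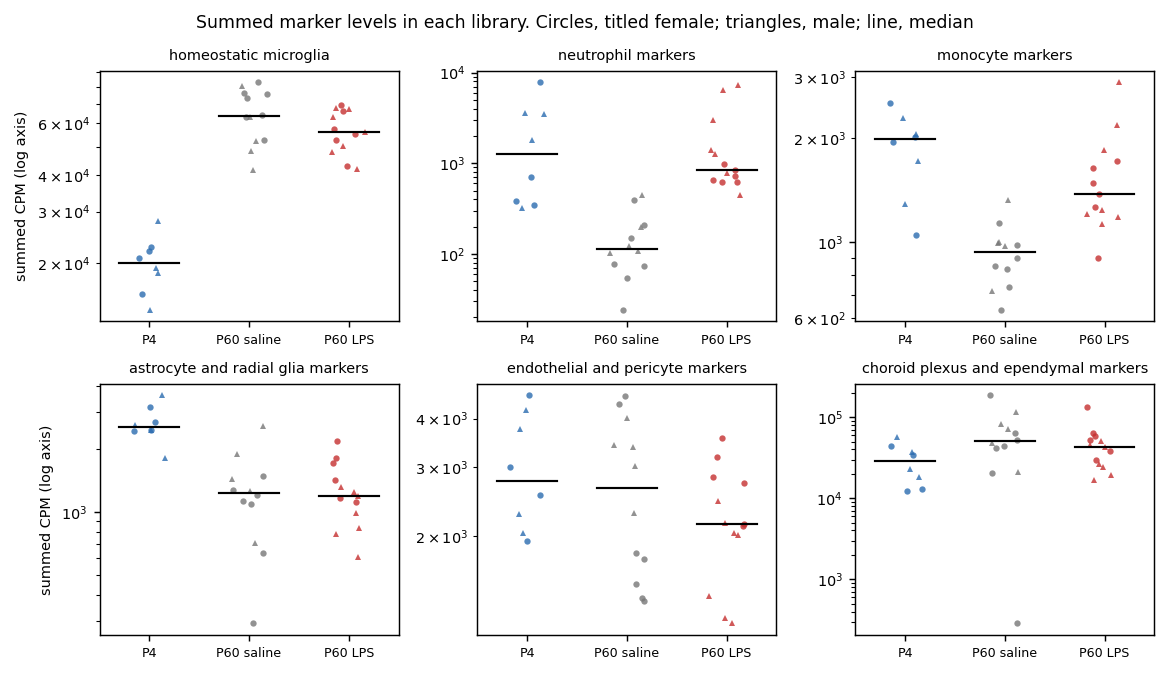
Summed CPM of 6 marker lists in each library (log axis) for P4, P60 saline and P60 LPS. Circles are libraries titled female, triangles male, and the line is the median. Homeostatic genes separate P4 from both adult states, while neutrophil markers reach 7862 CPM at P4 and 7382 with LPS but 445 with saline.

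Adult LPS and neonatal microglia differed in 6143 of 12150 tested genes (50.6%). With LPS 3042 genes were higher (25%) and 3101 were lower (25.5%) than at P4, and the median over all tested genes was -0.0073. Against saline, 5652 genes (46.5%) changed at P4 and 1948 (16%) with LPS. P4 raised 2988 genes (24.6%) and lowered 2664 (21.9%), whereas LPS raised 1412 (11.6%) and lowered 536 (4.41%). The comparisons against saline share the saline libraries. Scaling by library totals, without TMM, moved the share of LPS-higher genes among those that differed between LPS and P4 from 49.5% to 23% (median over all genes -0.37), and upper-quartile scaling moved it to 39.1% (median -0.13). For LPS against saline the share of higher genes was 72.5%, and 47.4% and 52.1% under those scalings. For P4 against saline it was 52.9%, and 74.6% with library totals.

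Every tested gene was placed by its 3 tests. A gene raised in both was higher than saline at P4 and with LPS. A gene of the LPS state was raised by LPS only against saline and was also higher with LPS than at P4, and a gene of the P4 state the reverse. There were 449 genes raised in both (3.7%), 847 of the LPS state (6.97%), 2251 of the P4 state (18.5%), 404 raised in 1 condition without a separation of LPS from P4, and 8199 raised in neither (67.5%). Of the 449 raised in both, 103 were higher with LPS, 71 higher at P4 and 275 not separated. Activation was described with 12 lists holding 338 genes, of which 325 passed the filter on low counts. The 13 genes that did not pass it were Cxcl13, Oas1g, Arg1, Marco, Lyz1, Timd4, H2-T10, H2-DMb2, Ciita, Pdcd1lg2, Tnfsf4, Lamp3 and Atp6v0d2. Of the 325 genes, 236 were higher and 39 lower with LPS than at P4 (median 1.252), 136 belonged to the LPS state, 30 to the P4 state, 37 were raised in both, 5 were unresolved and 117 were raised in neither. All 13 LPS libraries lay above all 8 P4 libraries for 138 of the 325 genes, against 6.49% of all tested genes, and the reverse held for 13, against 8.16%. Neutrophil transcripts were examined by leaving out the 4 P4 and 5 LPS libraries above 1000 CPM of their markers. The other alternative took the neutrophil sum as a covariate. In that sum the lowest LPS library (452 CPM) lay above the highest saline library (445 CPM). The covariate is therefore largely bound up with the LPS against saline difference. The 5 LPS libraries left out were all titled male, and the only male P4 library left was replicate 2. Calls kept or lost in either alternative do not separate neutrophil RNA from state. Of the 136 LPS-state genes 88 kept the call in each of these alternatives, and of the 30 P4-state genes 24 and 23 did.

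**Figure D2:**
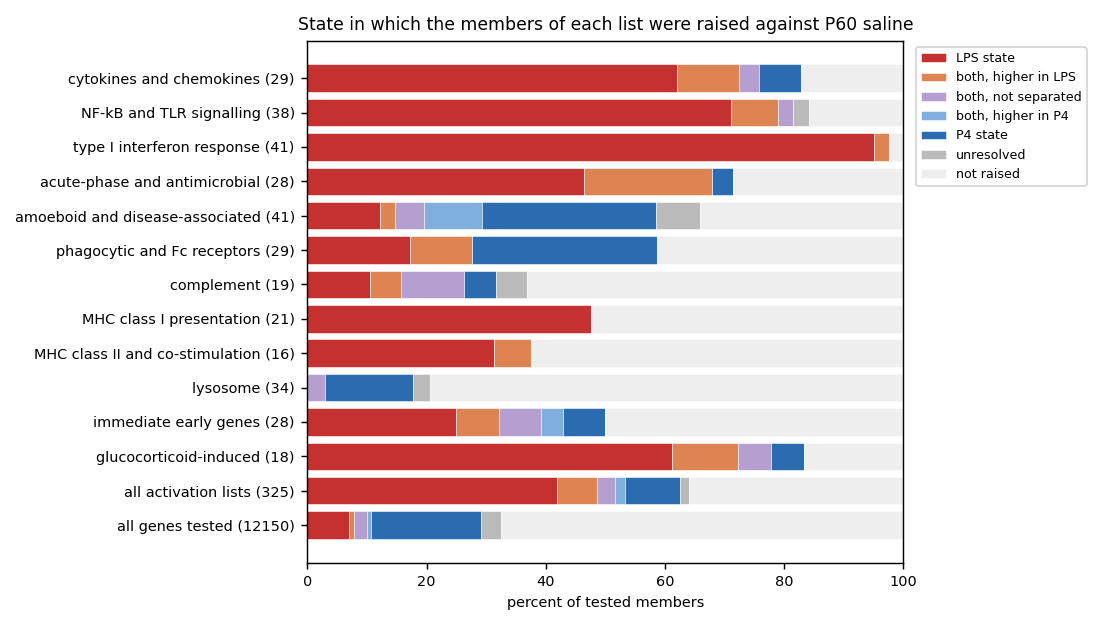
Percent of the tested members of each activation list (number in brackets) that were raised with LPS only, in both conditions, at P4 only, or in neither, against P60 saline. Interferon genes were nearly all of the LPS state (39 of 41), amoeboid and disease-associated genes were spread over the classes (12 of 41 of the P4 state, 7 in both, 5 of the LPS state and 14 in neither), and the bottom bar gives all 12150 genes.

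Interferon-induced genes belonged to the LPS state almost as a whole. All 41 tested members of the list were higher with LPS than at P4 (median 3.13), 40 were higher with LPS than with saline, and 21 were lower at P4 than with saline. Dhx58, Ifi35 and Xaf1 lost the LPS-state call with the neutrophil covariate. Ifit1, which binds foreign RNA caps, read 0.859, 1.61 and 3.59 CPM at P4, 5.14, 7.72 and 22.7 with saline, and 34.4, 329.8 and 689.6 with LPS. Every LPS library was above every saline library, and every saline library above every P4 library, so neonatal cells were the lowest state (7.59 ± 0.44 for LPS minus P4, adjusted p = 5.0e-16, and -2.31 ± 0.45 for P4 minus saline, adjusted p = 7.5e-05). Rsad2, the antiviral enzyme viperin, read 4.86, 9.04 and 14.3 CPM at P4, 4.67, 10.5 and 33.5 with saline, and 16.7, 860.2 and 1449 with LPS; 1 LPS library, female replicate 3, lay at 16.7 CPM, within the saline range. It was higher with LPS than at P4 by 6.42 ± 0.48 and not separated between P4 and saline (-0.28 ± 0.44, adjusted p = 0.63). Gbp2, a guanylate-binding protein induced by interferon, read 7.07, 13.4 and 18.3 CPM at P4, 18.9, 24.7 and 49.5 with saline, and 232, 500.4 and 1064 with LPS, with all states apart in the same order as Ifit1. The medians of Ifit3 and Ifi47 stood in that order, with LPS minus P4 changes of 6.91 ± 0.43 and 5.50 ± 0.32.

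Of the 41 interferon genes the single member raised in both was Slfn2, a schlafen-family gene needed for immune cell quiescence. It read 61.9, 97.1 and 164 CPM at P4, 15.04, 34.1 and 91.8 with saline, and 56.2, 256 and 556 with LPS, and its change against saline was 1.33 ± 0.27 at P4 and 2.74 ± 0.26 with LPS. Its shared call was lost with the neutrophil covariate. Bst2 was raised in neither. Ifit1 and Ifit3 have close paralogs whose reads could be shared, which the counting may split.

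Promoter sequences are shown because the interferon genes moved together in the LPS libraries. The windows hold the 250 bases before the annotated start, on the strand of the gene, from RefSeq on GRCm38.p6, an assembly other than that of the counts, and 9703 of the 12150 genes had one. The core of the interferon-stimulated response element, GAAA, any 2 bases, GAAA on either strand, was present in 15 of 31 interferon-list windows (48.4%) and in 3.36% of all. Ifit1 (chr19:34640639-34640888, plus strand) holds 2 matches and Rsad2 (chr12:26456453-26456702, minus strand) 1. Capitals mark the matches, which in these windows read on the opposite strand. A match of letters is a description and not a shown binding site.
Ifit1: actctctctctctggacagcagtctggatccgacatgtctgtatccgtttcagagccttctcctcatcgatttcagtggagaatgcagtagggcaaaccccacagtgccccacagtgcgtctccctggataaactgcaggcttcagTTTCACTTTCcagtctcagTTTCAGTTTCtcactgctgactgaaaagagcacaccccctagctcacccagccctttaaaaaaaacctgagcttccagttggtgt
Rsad2: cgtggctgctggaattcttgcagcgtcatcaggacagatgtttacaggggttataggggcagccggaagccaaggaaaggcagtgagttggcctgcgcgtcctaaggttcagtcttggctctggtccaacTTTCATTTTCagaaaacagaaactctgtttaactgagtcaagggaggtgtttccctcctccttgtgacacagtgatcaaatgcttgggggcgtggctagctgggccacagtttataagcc

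Signalling genes of the NF-kB and Toll-like receptor pathway had, after interferon genes, the largest share of LPS-state members among the lists. Of 38 tested, 35 were higher with LPS than at P4 and none lower (median 1.34), 27 were of the LPS state and 4 were raised in both. Of those 4, Tlr2 kept the shared call without the neutrophil-rich libraries and Nfkb2 with the neutrophil covariate. Of the LPS-state genes, Nfkb1, Nfkbie, Rel, Ticam1, Tlr1, Tlr3, Tlr6, Tnfaip3 and Traf6 lost the call under both neutrophil alternatives. Icam1, Irak2, Nfkbib, Relb and Zc3h12a lost it only without the neutrophil-rich libraries, and Ripk2 and Tlr7 only with the covariate. Socs3, a feedback inhibitor of cytokine receptors, read 91.3, 97.6 and 127 CPM at P4, 103, 278 and 579 with saline, and 575, 1028 and 2239.7 with LPS. All P4 libraries lay below all LPS libraries (3.41 ± 0.25, adjusted p = 1.9e-13), and P4 was also below saline (-1.55 ± 0.23). The receptors divided. Tlr7, a receptor for single-stranded RNA, rose with LPS against saline (0.94 ± 0.17, its LPS-state call lost with the neutrophil covariate) and was lower at P4 than with saline (-1.89 ± 0.20). Tlr2, a receptor for bacterial lipopeptides, was raised in both and read 261, 482 and 673 CPM at P4, 193, 326 and 461 with saline, and 401, 609 and 1659 with LPS, with overlapping libraries. Tlr4, the LPS receptor, was not changed past the threshold by LPS (-0.10 ± 0.14, adjusted p = 0.69) and was lower at P4 than with saline (-1.34 ± 0.16, adjusted p = 1.6e-08). Nfkb2, the p100 subunit, was raised in both and not separated (0.16 ± 0.31, adjusted p = 0.7). Bcl3 and Cd40, an inhibitor-like partner of NF-kB and a co-stimulatory receptor, were raised in both but stronger with LPS, by 2.17 ± 0.32 and 2.53 ± 0.33.

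Cytokines and chemokines were spread over the classes. Of 29 tested, 18 were of the LPS state, among them Il1a, Il1b, Il6, Tnf, Il12b and Il10, 4 were raised in both, 2 were of the P4 state and 5 were raised in neither. Of those named, Il1a, Il1b, Tnf and Il10 lost the call under both neutrophil alternatives, and Il6 and Il12b kept it. Il6 read 3.09, 4.83 and 9.68 CPM at P4, 6.6, 10.3 and 32.9 with saline, and 16.7, 68.1 and 188 with LPS. All LPS libraries exceeded all P4 libraries, and P4 was below saline (-1.08 ± 0.35, adjusted p = 0.011). Ccl5, which attracts T cells and monocytes, had 3 counts in all 8 P4 libraries together, 72 in the saline libraries and 752 in the LPS libraries. Cxcl9, an interferon-gamma-induced chemokine, was higher with LPS than at P4 by 7.92 ± 0.54. Ccl3 and Ccl4, macrophage inflammatory proteins that also lost the call under both, read lower at P4 than with saline (-0.69 ± 0.21 and -0.90 ± 0.22) and higher with LPS than with saline (0.88 ± 0.18 and 0.78 ± 0.19). Il1b rose with LPS by 1.56 ± 0.28 against saline and did not pass the test at P4 (0.15 ± 0.31, adjusted p = 0.71), and Tnf rose by 1.23 ± 0.24 with LPS and was lower at P4 (-0.72 ± 0.27, adjusted p = 0.028). Il1b, Tnf and Tlr4 are named for their familiarity and were chosen after their values were seen.

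Acute-phase and antimicrobial genes included the largest LPS rise of the lists. Of 28 tested, 26 were higher with LPS than at P4 and 1 lower (median 1.62), with 13 of the LPS state and 6 raised in both. Saa3, an acute-phase apolipoprotein made by macrophages, read 0, 0.153 and 1.3 CPM at P4, 0, 0 and 1.17 with saline, and 11.5, 47.8 and 769 with LPS. It had 6 counts in all P4 libraries, 3 in all saline libraries and 1398 in the LPS libraries, and LPS minus P4 was 8.39 ± 0.80. The LPS libraries themselves ranged widely, and the 4 of the middle date averaged 325 CPM against 39.4 and 41.6 on the other dates. Cp, the copper oxidase ceruloplasmin, read 18.6, 31.8 and 42.8 CPM at P4, 31.6, 96.7 and 176 with saline, and 176, 382 and 819.5 with LPS, with P4 below saline (-1.60 ± 0.28) and LPS above it (2.14 ± 0.24). The protease inhibitor genes Serpina3f and Serpina3g, which have close copies, were higher with LPS than at P4 by 6.49 ± 0.49 and 4.49 ± 0.39.

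The activation genes raised in both conditions were 37. Higher with LPS than at P4 were 22: Bcl3, Cd300lf, Cd40, Cfb, Cxcl1, Cxcl2, Cybb, Fcgr4, Fosl2, Hif3a, Hp, Il1rn, Lcn2, Lilrb4, Maff, Msr1, Mt2, Nos2, Ptges, Serpina3n, Slfn2 and Tlr2. Not separated were 10: C3, Ccl7, Cdkn1a, Cfp, Dusp2, Fosl1, Gla, Ldha, Nfkb2 and Plaur. Higher at P4 were 5: Dusp5, Fabp5, Fn1, Lgals3 and Spp1. Without the neutrophil-rich libraries 21 genes were raised in both, all among the 37, and with the neutrophil sum as a covariate 15 were, 14 of them among the 37. With date as a random block 28 of the 37 were called. The 11 genes called under all 3 of these alternatives were C3, Cdkn1a, Cfb, Cxcl1, Dusp2, Fosl1, Fosl2, Hif3a, Plaur, Ptges and Spp1.

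Plaur, the urokinase receptor, was raised in both and not separated. It read 51.5, 62.2 and 93.6 CPM at P4, 7.28, 13.9 and 26.0 with saline, and 22.7, 71.0 and 152 with LPS. All 8 P4 and 12 of 13 LPS libraries exceeded the highest saline library, and P4 and LPS overlapped throughout (0.28 ± 0.24, adjusted p = 0.35, against 2.17 ± 0.26 at P4 and 2.45 ± 0.25 with LPS versus saline). The 95% interval of the LPS minus P4 change was -0.20 to 0.76. Without the libraries rich in neutrophil markers the changes against saline were 2.17 and 2.27.

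C3, the central complement component, read 32.9, 43.2 and 233 CPM at P4, 1.76, 5.14 and 17.0 with saline, and 21.9, 53.0 and 321 with LPS. Every P4 and every LPS library exceeded every saline library, and LPS and P4 were not separated (-0.33 ± 0.37, adjusted p = 0.49). The P4 values fell into groups: female replicate 4 and male replicates 1 and 4 read 233, 145 and 145 CPM, and the other 5 read 32.9 to 44.5. Those 3 are among the 4 P4 libraries above 1000 CPM of neutrophil markers. Without the neutrophil-rich libraries C3 was raised by 2.50 at P4 and 2.81 with LPS, against 3.84 and 3.52 with all libraries. Cfb, a protease of the alternative complement pathway, was raised in both (1.67 ± 0.32 and 3.07 ± 0.30) and higher with LPS (1.41 ± 0.28). Cfp, or properdin, which stabilises that pathway's convertase, was raised in both and not separated, and lost the shared call under both neutrophil alternatives. The C1q chains C1qa, C1qb and C1qc were raised in neither.

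Cxcl1 and Cxcl2, which attract neutrophils, were raised in both with a gradient. Cxcl1 read 14.6, 40.8 and 74.7 CPM at P4, 2.89, 8.15 and 43.5 with saline, and 112, 213 and 525 with LPS, so that all LPS libraries were above all P4 libraries, and 3 of 8 P4 libraries were above the highest saline library. Its changes against saline were 2.01 ± 0.38 at P4 (adjusted p = 4.7e-05) and 4.49 ± 0.37 with LPS. Cxcl2 changed by 0.77 ± 0.29 and 2.36 ± 0.27, and its P4 change did not pass the test without the neutrophil-rich libraries (0.90, adjusted p = 0.072). Ccl7, a monocyte attractant, was raised in both without a separation (1.06 ± 0.25 and 1.21 ± 0.23). Il1rn, the antagonist of the interleukin-1 receptor, read 7.24, 13.4 and 19.1 CPM at P4, 0.501, 4.52 and 7.34 with saline, and 33.3, 194 and 1094 with LPS. Its P4 rise was small beside that with LPS (1.56 ± 0.42 against 6.03 ± 0.38), and LPS female replicate 3 read 33.3 CPM where the other 12 read 133 or more.

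Cxcl1 and Cxcl2 promoters are printed because these genes rose at P4 as well as with LPS. The kappa-B consensus, searched by name on both strands, was present in 7 of 27 windows of activation genes raised in both (25.9%), in 23.3% of those of the LPS state, in 9 of 28 NF-kB list windows (32.1%) and in 5.62% of all. The windows lie at chr5:90890995-90891244 and chr5:90903649-90903898, both on the plus strand, and the capitals mark the same 11 letters in each, which hold 2 overlapping matches.
Cxcl1: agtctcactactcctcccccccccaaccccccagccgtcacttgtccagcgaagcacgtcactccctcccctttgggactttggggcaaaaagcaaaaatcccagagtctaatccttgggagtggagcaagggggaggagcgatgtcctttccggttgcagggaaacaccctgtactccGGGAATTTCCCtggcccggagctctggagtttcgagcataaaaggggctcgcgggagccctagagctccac
Cxcl2: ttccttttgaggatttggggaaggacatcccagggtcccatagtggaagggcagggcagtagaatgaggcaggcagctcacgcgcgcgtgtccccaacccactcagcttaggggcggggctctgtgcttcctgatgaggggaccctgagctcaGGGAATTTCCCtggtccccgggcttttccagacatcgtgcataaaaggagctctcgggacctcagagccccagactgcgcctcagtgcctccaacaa

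**Figure D3:**
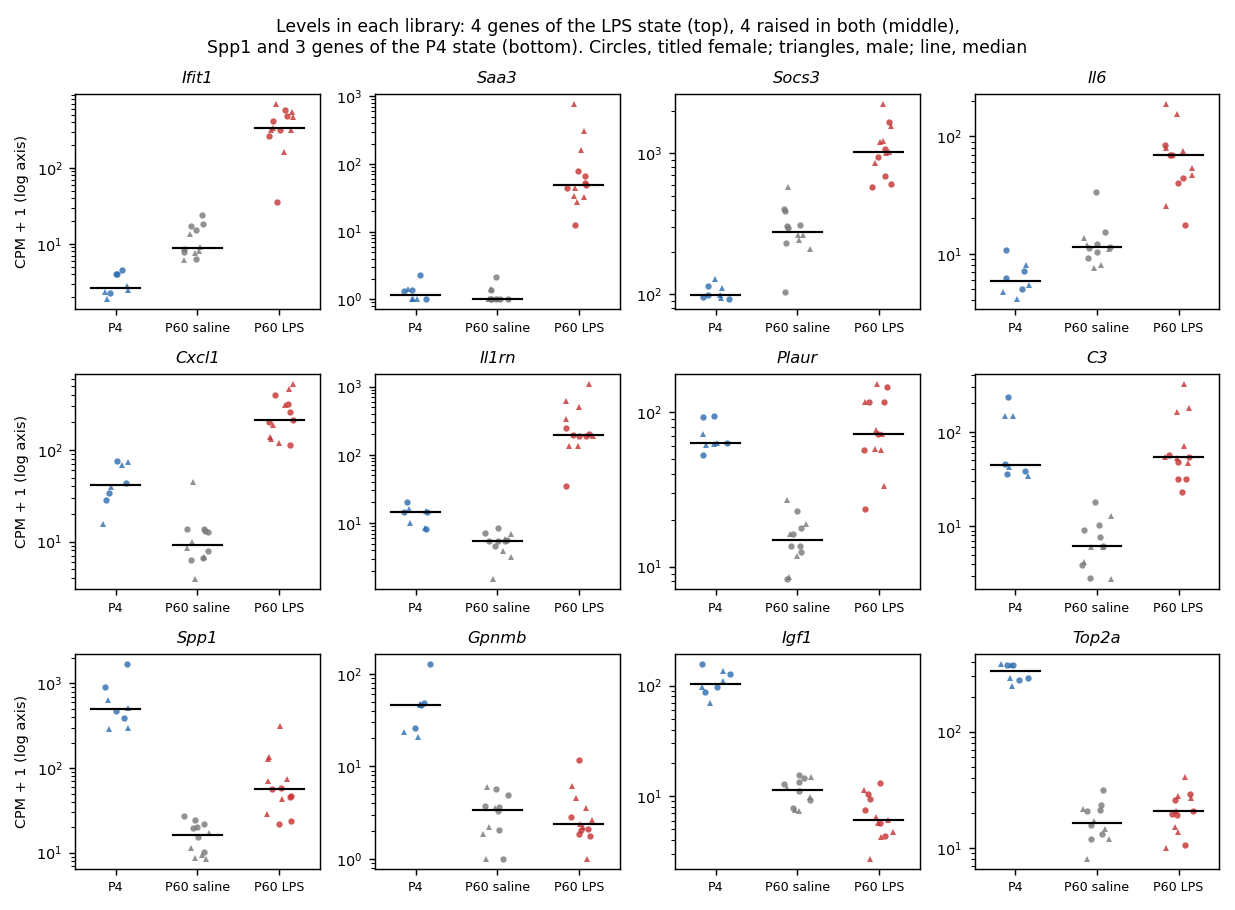
CPM + 1 in each library (log axis) of 12 genes at P4, with P60 saline and with P60 LPS. Circles are libraries titled female, triangles male, and the line is the median. Ifit1, Saa3, Socs3 and Il6 are high with LPS only, Cxcl1, Il1rn, Plaur and C3 in both conditions, and Gpnmb, Igf1 and Top2a at P4 only, with Spp1 high at P4 and intermediate with LPS.

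Outside the activation lists, the genes most raised in both were of several kinds. Adamts9 and Adamts4, secreted proteases of matrix proteoglycans, read 26.6, 30.2 and 68.2 CPM at P4, 0, 2.81 and 7.19 with saline, and 49.4, 97.9 and 217 with LPS for the first, and the second changed by 4.31 ± 0.57 at P4 and 5.52 ± 0.53 with LPS. All P4 and all LPS libraries exceeded the highest saline library for Adamts9. Fpr2, a formyl peptide receptor, rose by 4.22 ± 0.59 at P4 and 6.36 ± 0.53 with LPS. Vcan, a matrix proteoglycan also used as a monocyte marker, rose by 4.62 ± 0.49 and 3.42 ± 0.49. F10, coagulation factor X and on the same marker list, rose by 4.62 ± 0.75 at P4 and 5.22 ± 0.72 with LPS.

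The calprotectin genes S100a8 and S100a9, abundant in neutrophils, were among the 10 largest shared rises. S100a8 read 48.6, 175 and 1290.4 CPM at P4, 2.1, 27.3 and 99.1 with saline, and 87.1, 196 and 2261 with LPS. Without the neutrophil-rich libraries its P4 change did not pass the test (0.70, adjusted p = 0.33), while that with LPS did (2.07, adjusted p = 0.001). With the neutrophil sum, of which it is part, as a covariate the P4 change of S100a8 was -0.70. Of 14 tested neutrophil markers, 8 were raised in both, 5 were of the P4 state and 1 of the LPS state. The P4 state held stefin genes and Mpo, the myeloperoxidase of granulocyte precursors (0, 30.3 and 106 CPM at P4, 0, 0 and 0.902 with saline, and 0, 0 and 4.41 with LPS), and the LPS state held Retnlg (3.34 ± 0.45 against saline). Plac8, Ly6c2 and Chi3l3 of the monocyte list were raised in both and not separated, and have close relatives in the genome in the case of Ly6c2 and Chi3l3. With the neutrophil covariate the P4 change turned negative for Ly6c2 (-0.50) and Chi3l3 (-0.97), as did the LPS change of Chi3l3 (-0.76).

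Genes of amoeboid and disease-associated microglia were tilted to P4. Of 41 tested, 17 were lower and 10 higher with LPS than at P4 (median -0.35). Over all tested genes 25.5% were lower and 25% higher, so the share that was higher lay near that of all genes. Of the 41, 12 were of the P4 state, 7 were raised in both and 5 were of the LPS state. The shares of all tested genes were 18.5%, 3.7% and 6.97% in that order. Spp1, the secreted phosphoprotein osteopontin, read 293, 491 and 1708 CPM at P4, 7.42, 15.2 and 26.2 with saline, and 20.9, 56.0 and 309 with LPS. It was raised in both (5.49 ± 0.35 and 2.30 ± 0.32) and higher at P4 than with LPS (-3.19 ± 0.30, adjusted p = 7.9e-11), the libraries overlapping at a single LPS value, 309 CPM in male replicate 4. Gpnmb, a transmembrane glycoprotein of lysosome-rich macrophages, read 19.9, 44.6 and 127 CPM at P4, 0, 2.4 and 5.01 with saline, and 0, 1.37 and 10.7 with LPS. P4 lay above LPS and saline without overlap, and LPS did not differ from saline past the threshold (0.01 ± 0.52, adjusted p = 0.99).

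Lpl, lipoprotein lipase, was of the P4 state with the same form: 3.55 ± 0.17 for P4 minus saline and 0.01 ± 0.15 for LPS minus saline. Igf1, a growth factor for neurons and myelin-forming cells, read 68.4, 103 and 157 CPM at P4, 6.34, 10.4 and 14.6 with saline, and 1.69, 5.09 and 12.2 with LPS, and was lower with LPS than with saline (-0.77 ± 0.23, adjusted p = 0.015). Apoe and Itgax, a lipid carrier and the CD11c integrin chain, rose at P4 by 1.62 ± 0.23 and 1.41 ± 0.24 and did not pass the test with LPS (-0.39 ± 0.20 and 0.16 ± 0.24), both named after their values were seen. Lgals3 and Fn1, galectin-3 and fibronectin, were raised in both and higher at P4, but both lost the shared call under each neutrophil alternative. The LPS minus saline change of Lgals3 was -0.11 with the covariate, and its call was lost when any of 25 libraries was left out. The LPS state of this list consisted of Ccl3, Ccl4, Csf1, Hif1a and Cd52, of which Hif1a kept the call under both neutrophil alternatives, Csf1 with the covariate alone, and the other 3 genes under neither. Hif1a, the hypoxia-inducible factor subunit, rose with LPS by 0.85 ± 0.12 and not past the threshold at P4 (-0.10 ± 0.13, adjusted p = 0.54).

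**Figure D4:**
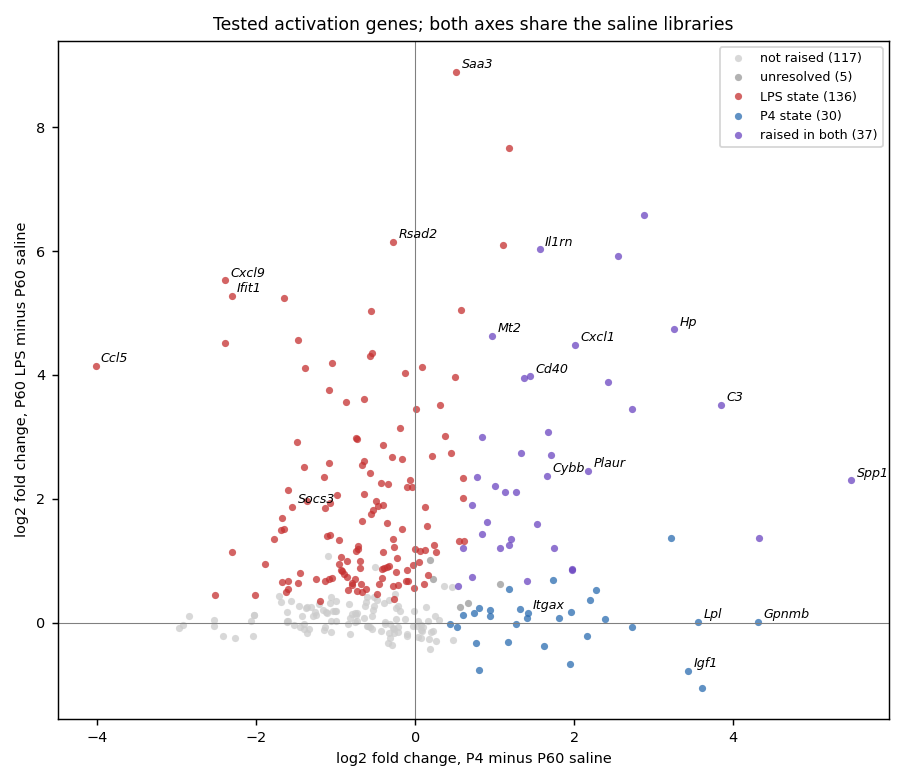
Log2 fold change of the 325 tested activation genes at P4 (horizontal) and with P60 LPS (vertical), each against the same 12 P60 saline libraries, coloured by the state in which the gene was raised. Saa3 and interferon genes such as Rsad2 and Ifit1 stand along the vertical axis or to its left, Gpnmb, Lpl and Igf1 along the horizontal one, and the 37 purple genes, with C3, Spp1, Cxcl1 and Plaur, in the upper right. The vertical place of Saa3 rests on 3 counts in the saline libraries.

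Phagocytic receptors did not move as 1 group. Of 29 tested, 15 were higher and 11 lower with LPS than at P4, with 9 of the P4 state, 5 of the LPS state and 3 raised in both. Over all tested genes these shares were 25%, 25.5%, 18.5%, 6.97% and 3.7% in that order. The P4 state held Axl, Tyro3, Cd36, Scarb1, Mrc1, Cd93, Cd300lb, Olr1 and Megf10, of which Tyro3 and Olr1 lost the call under both neutrophil alternatives and Axl without the neutrophil-rich libraries. Mrc1, the mannose receptor, read 221, 644 and 948 CPM at P4, 82.5, 141 and 186 with saline, and 58.6, 121 and 184 with LPS, and Cd93 rose at P4 by 1.96 ± 0.22. Mrc1 and Cd36 are also border macrophage markers, of which 7 of 12 tested were higher at P4 than with LPS, among them Lyve1 and Pf4 (-2.48 ± 0.37 and -1.83 ± 0.40 for LPS minus P4). The LPS state held the Fc receptor genes Fcgr2b, Fcgr3 and Fcer1g with Havcr2 and Itgb3. Under both neutrophil alternatives Itgb3 kept that call and the other 4 genes lost it. Fcgr3 read 219, 402 and 522 CPM at P4, 649, 980.3 and 1913 with saline, and 865, 1623 and 2466 with LPS, lower at P4 than with saline by -1.47 ± 0.18. Fcgr4, Msr1 and Cd300lf were raised in both, a call that Msr1 kept without the neutrophil-rich libraries and none of the 3 kept with the covariate. Msr1, a scavenger receptor, was higher with LPS than at P4 by 1.19 ± 0.24.

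Antigen presentation genes separated LPS from P4 mainly through low neonatal levels. All 21 tested MHC class I genes and all 16 tested class II and co-stimulation genes were higher with LPS than at P4 (medians 1.19 and 2.16). Of the 16, 13 were lower at P4 than with saline and 6 were raised by LPS. H2-Ob and Ctss, a class II chaperone chain and the protease that trims the invariant chain, were low at P4 (-2.03 ± 0.17 and -2.02 ± 0.16 against saline) and did not pass the test with LPS (0.13 ± 0.14 and 0.12 ± 0.13). Cd274, the checkpoint ligand PD-L1, read 8.58, 13.8 and 23.2 CPM at P4, 16.2, 22.7 and 35.2 with saline, and 33.3, 199 and 325 with LPS, with no overlap of LPS and P4. Among class I genes, Nlrc5, their transactivator, rose with LPS by 1.85 ± 0.20 and was lower at P4 by -1.14 ± 0.24. H2-Q6 rose by 1.49 ± 0.25 and has close copies among the H2-Q genes. Complement receptor chains Itgam and Itgb2 showed the same low neonatal level, at -1.40 ± 0.17 and -1.04 ± 0.17 against saline.

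**Figure D5:**
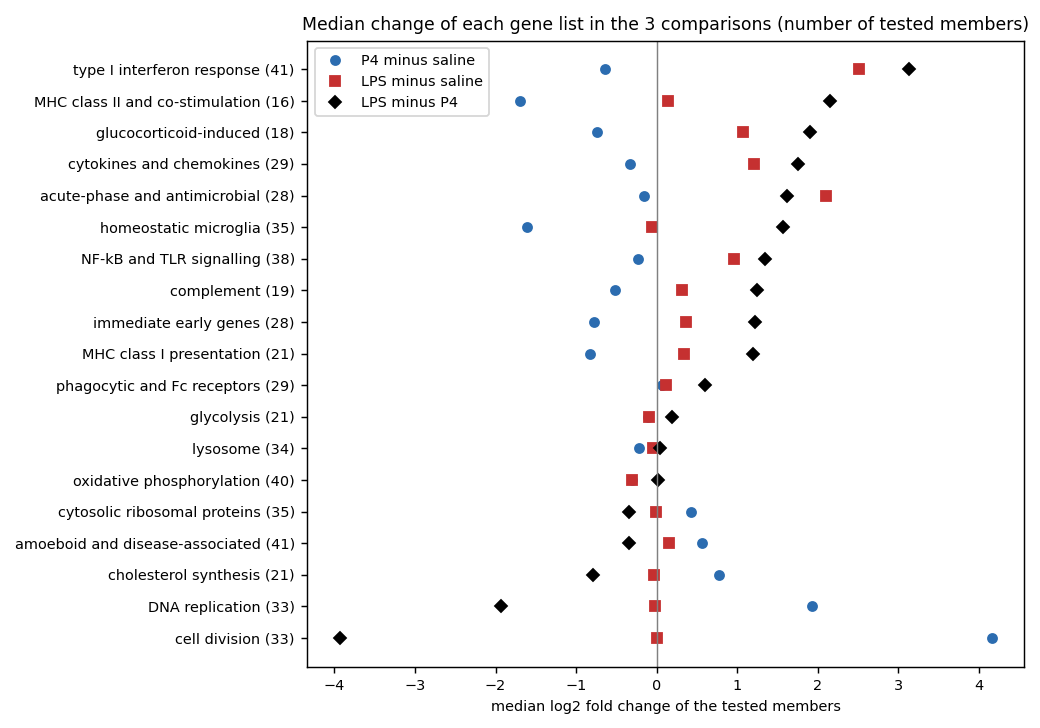
Median log2 fold change of the tested members of each activation and cell state list, without the marker lists of other cells, for P4 minus saline (blue circles), LPS minus saline (red squares) and LPS minus P4 (black diamonds). Among these lists the interferon list has the highest LPS minus P4 median, 3.13, with a low P4 value, and cell division the lowest, -3.93, with LPS at the saline level.

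Cell division set the neonatal state apart from the LPS state. All 33 cell division genes and all 33 DNA replication genes were higher at P4 than with LPS (medians -3.93 and -1.94 for LPS minus P4), and for the division genes no P4 library overlapped any LPS library. Top2a, a topoisomerase of dividing cells, read 243, 329.9 and 382 CPM at P4, 7.02, 15.3 and 30.6 with saline, and 8.91, 19.9 and 39.8 with LPS. LPS and saline were not separated (0.35 ± 0.21, adjusted p = 0.28), while P4 minus saline was 4.35 ± 0.21. Cdk1, the mitotic kinase, was higher at P4 than with saline by 4.22 ± 0.19. With LPS 1 gene of each list was raised against saline, Prc1 and Mcm4, by 0.69 ± 0.24 and 0.67 ± 0.15 (adjusted p = 0.041 and 0.0016), and the call of Prc1 was lost when any of 16 libraries was left out.

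The Top2a promoter stands for this group, whose members moved together at P4. The cell-cycle homology region letters TTTGAA were present, on either strand, in 10 of 28 division gene windows (35.7%) and in 12.7% of all, and the CCAAT box CCAAT in 23 of 28 (82.1%) and in 40.5% of all. The Top2a window (chr11:99024190-99024439, minus strand) holds 2 of the first and 6 of the second, all in capitals. The NF-kB consensus was in 2 of the 28 windows and the interferon element core in 1.
Top2a: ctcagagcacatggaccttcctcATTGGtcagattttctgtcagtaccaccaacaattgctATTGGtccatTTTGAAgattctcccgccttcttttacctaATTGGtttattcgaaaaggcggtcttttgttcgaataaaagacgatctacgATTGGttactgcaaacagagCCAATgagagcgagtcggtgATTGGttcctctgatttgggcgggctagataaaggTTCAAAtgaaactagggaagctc

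Immediate early genes, transcribed within minutes of many stimuli, were mostly higher with LPS than at P4 (21 of 28, with 3 lower). Fos and Jun were lower at P4 than with saline (-1.46 ± 0.18 and -2.53 ± 0.24) and did not pass the test with LPS (0.27 ± 0.15 and -0.05 ± 0.19). The 3 lower ones were Dusp5, a phosphatase of MAP kinases, and the orphan nuclear receptors Nr4a2 and Nr4a3. Nr4a2 read 28.6, 81.0 and 107 CPM at P4, 4.37, 9.67 and 20.7 with saline, and 2.78, 10.1 and 22.9 with LPS, without overlap of P4 and LPS. Fosl1, Fosl2, Maff, Dusp2 and Dusp5 were raised in both. Maff and Dusp5 were not among the 11 genes called under all 3 alternatives above. Dusp5 lost the shared call with the neutrophil covariate and with date as a random block. Dusp2, another MAP kinase phosphatase, rose by 1.53 ± 0.28 at P4 and 1.59 ± 0.26 with LPS.

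Glucocorticoid-induced genes marked the LPS state. Of 18 tested, 16 were higher with LPS than at P4 (median 1.90), 14 were raised by LPS against saline and 10 were lower at P4. Fkbp5, a chaperone of the glucocorticoid receptor, read 40.8, 54.4 and 63.8 CPM at P4, 43.7, 108 and 243 with saline, and 339, 579.5 and 803 with LPS, and all LPS libraries were above all others. Zbtb16 rose by 2.92 ± 0.29 with LPS. Mt2, Hif3a and Cdkn1a were raised in both, and Mt2 lost that call under both neutrophil alternatives. Mt2, a metallothionein, rose by 0.97 ± 0.36 at P4 and 4.63 ± 0.36 with LPS, whereas the changes of Cdkn1a, the p21 cell-cycle inhibitor, were not separated (1.18 ± 0.21 and 1.254 ± 0.19, LPS minus P4 0.07 ± 0.20).

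Among metabolic lists, cholesterol synthesis genes were higher at P4 than with LPS in 13 of 21 and lower in none. Of 40 oxidative phosphorylation genes 2 passed the test between LPS and P4, and of 34 lysosomal genes 10 were higher and 6 lower with LPS. Over all tested genes 50.6% passed, with 25% higher and 25.5% lower with LPS. The lysosomal protease gene Ctsb was higher at P4 than with saline (0.94 ± 0.13). Pfkfb3, which stimulates glycolysis, read 161, 211 and 342 CPM at P4, 109, 349 and 578 with saline, and 540.4, 889.7 and 2237 with LPS, and Hk2, hexokinase 2, was lower at P4 than with saline (-1.94 ± 0.21) without passing the test with LPS (0.16 ± 0.17). Ldha was raised in both by 0.72 ± 0.18 and 0.73 ± 0.16, a call lost under both neutrophil alternatives.

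Some genes moved in opposite directions from saline. There were 330 genes raised with LPS and lowered at P4, and 162 raised at P4 and lowered with LPS. Besides Ifit1 and Cxcl9, the first group held I830012O16Rik, at -2.79 ± 0.59 and 4.31 ± 0.34. The second was led by Aplnr, the apelin receptor of endothelial cells, which read 87.5, 129 and 247 CPM at P4, 3.4, 7.04 and 23.5 with saline, and 0, 0 and 5.21 with LPS. Endothelial genes did not move as 1 group: 11 of 18 endothelial and pericyte markers were higher at P4 than with LPS and 3 were lower. Against saline, LPS lowered 6 of them and raised 3. Their sums overlapped, at 1937 to 4591 CPM at P4 and 1193 to 3573 with LPS. Cldn5, a tight-junction protein, was raised at P4 (0.98 ± 0.29) and lowered with LPS (-3.11 ± 0.34). Ly6a went the other way, at 12.8 to 29.3 CPM at P4 and 158 to 694 with LPS. The 10 largest P4 excesses over LPS included Ncan and Fabp7, a brain proteoglycan and a radial glia fatty acid binding protein, at -9.59 ± 0.42 and -9.17 ± 0.34. They also included the stefin gene Stfa1, which has close copies, with 3094 counts in all P4 libraries and 4 in all LPS libraries.

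Some of the largest differences between LPS and P4 were also present between saline and P4. Prlr, the prolactin receptor, read 1.15, 2.63 and 3.68 CPM at P4, 3.4, 626 and 1209.5 with saline, and 233, 631 and 2199 with LPS, and Upk1b, a uroplakin, 0.329, 0.44 and 0.919 CPM at P4, 53.6, 87.5 and 138 with saline, and 39.5, 76.9 and 107 with LPS. LPS and saline libraries overlapped for both genes, and neither passed the test between them (adjusted p = 1 and 0.64). Summed choroid plexus markers, a tissue in which Prlr is abundant, read 12459 to 56499 CPM at P4, 286 to 186293 with saline and 16858 to 132083 with LPS.

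The difference between LPS and P4 did not separate by titled sex for any gene. In edgeR 0 of 12150 genes passed the threshold for males minus females, 949 had an unadjusted p below 0.05, and DESeq2 and limma-voom called 0. Ifit1 averaged 348 ± 192 CPM in female and 402 ± 175 in male LPS libraries (SD, n = 6 and 7), and 2.70 ± 1.02 in female and 1.35 ± 0.373 in male P4 libraries (SD, n = 4 each).

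LPS libraries varied among themselves along the lists. Female replicate 3 had the lowest summed interferon level, 2567 CPM, and also the lowest values of Ifit1, Rsad2, Il6, Il1rn, C3 and Saa3. Male replicates 3, 4 and 5, which share the middle date, held the 3 highest values of Saa3, C3, Il1rn and Spp1, and are 3 of the 5 LPS libraries above 1000 CPM of neutrophil markers. Mean C3 on that date was 177 CPM, against 36.5 and 57.7 on the other LPS dates. At P4 the C3 mean ran from 33.7 to 189 CPM over the 4 dates, whereas Plaur stayed within 51.5 to 93.6 CPM in single libraries. Without the neutrophil-rich libraries the P4 changes of Cybb and Fpr2, 2 further shared genes, were 0.87 and 3.17. With all libraries they were 1.65 and 4.22. With the neutrophil covariate Cybb lost its shared call.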

How the data were processed

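RNA-seq read counts per transcript row were deposited by the authors as 1 table. Per the labels' protocols the libraries were stranded and from polyadenylated RNA. CASAVA 1.8.2, edgeR and mm9 are named in the submitters' processing notes, without a stated role. The aligner and counter were not given in the sources used here. That table holds 28644 rows for 22869 symbols. The row the authors marked was used for 21988 symbols and the row with most counts for 881. The marked row was not the one with most counts for 945 symbols.

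The 33 libraries of the P4, P60 saline and P60 LPS groups were fitted in R 4.3.3 with edgeR 4.0.16 (TMM scaling, filterByExpr, robust quasi-likelihood test, 6 groups of sex and state), adjusted over 12150 genes at 0.05. E18 and P14 libraries were not used, except in the alternative that fits all 60. The median SE was 0.204 for LPS minus P4, 0.202 for P4 minus saline and 0.188 for LPS minus saline. Tested on simulated data of 12150 genes, LPS minus P4 recovered 84 of 100 genes changed 2-fold and 99 of 100 changed 4-fold. There were 12 false calls among the unchanged genes. The simulated states differed in the changed genes only and held no date effect, so the false-call rate in the data is not given by it. No 2 libraries of a group agreed within sampling noise (chi-square per gene 2.63 to 50.1 over 79 pairs).

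The libraries, lists and tests were chosen with earlier results of these data known. Named genes averaged 10 CPM or more in 1 of the groups compared, and were the 10 largest rises and falls of LPS minus P4, the 10 genes raised in both with the largest smaller change, 8 of each state, 4 opposite changes each way, and up to 4 per list in each direction or raised in both. The text describes part of these. Il1b, Tnf, Tlr4, Apoe and Itgax, and members listed to complete a class, were named after their values were seen. Alternatives used DESeq2 1.42.0, limma-voom (limma 3.58.1), other scalings, rows, sex labels and filters, date, replicate number, and left-out libraries and dates. Those on neutrophil and choroid plexus markers and on the LPS libraries of lowest interferon sum were chosen after seeing the data. Promoter windows are from RefSeq on GRCm38.p6. Results for a few genes are not reported here.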

Additional observations from a re-analysis of the deposited data

Results flagged for a closer look

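In 132 tests, each of 1 gene or marker sum within 1 titled sex and state, 21 values stood apart from the others of their group. Chance gives about 1 in 20 for normally distributed values, a condition that CPM with many zeros need not meet. C3 read 233 CPM in P4 female replicate 4 against 44.4 in the next library, and in the same library the neutrophil markers summed to 7862 CPM against 713. Neuron markers summed to 164 CPM in P4 female replicate 1, below 249 in the next. Among P4 males, Saa3 read 0.442 CPM in replicate 3 with the others at 0, and Plaur 70.9 CPM in replicate 2 against 61.8.

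Among female LPS libraries, Il1rn was low in replicate 3, at 33.3 CPM against 188 in the next. Replicate 2 stood apart upward in Gpnmb (10.7 CPM against 1.85) and in the sums of oligodendrocyte lineage (52978 against 22717), red blood cell (92.1 against 22.1) and choroid plexus markers (132083 against 63051). Among male LPS libraries, replicate 4 held 769 CPM of Saa3 against 305 and 309 CPM of Spp1 against 133.

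Among female saline libraries, Saa3 read 1.17 CPM in replicate 4 against 0.39, and Il6 32.9 CPM in replicate 5 against 14.4. Replicate 6 stood apart in the sums of lymphocyte (103 CPM against 46.8), red blood cell (1824 against 117) and choroid plexus markers (186293 against 62979). Among male saline libraries, replicate 1 read 0.423 CPM of Saa3 with the others at 0 and 43.6 CPM of Cxcl1 against 8.78. Socs3 read 579 CPM in replicate 2 against 262, and the neutrophil markers summed to 445 CPM in replicate 5 against 199.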

How the results depend on the processing

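Leaving out 1 library moved no total by more than 1.5 times: LPS minus P4 gave 5776 to 6522 genes, P4 minus saline 5223 to 5940, LPS minus saline 1703 to 2104, raised in both 386 to 490, LPS state 767 to 906 and P4 state 2045 to 2418. Activation genes ran from 32 to 41 raised in both, 129 to 141 of the LPS state and 28 to 32 of the P4 state, and the difference between the sexes from 0 to 0. With date as a random block (correlation within a date 0.174) LPS minus saline gave 1069 genes (86.6% higher) and raised in both 248. With library totals the LPS state held 515 genes and the P4 state 3887. Without the filter on low counts LPS minus P4 called 7493 of 18482 genes, 42.7% higher. Asking for at least 2-fold left 2992 genes for LPS minus P4, 2513 for P4 minus saline, 782 for LPS minus saline, 183 raised in both, 344 of the LPS state (89 activation genes) and 1266 of the P4 state. Without the 9 libraries rich in neutrophil markers, so with fewer libraries, the values were 3599, 3694 and 906 genes for the comparisons in that order, 196 raised in both (21 activation genes) and 423 of the LPS state. With the neutrophil sum as a covariate LPS minus saline gave 817 genes, raised in both 143 (15 activation genes) and the LPS state 449. The cause of these shifts was not tested. In the fit without the 9 libraries, the only male P4 library left was replicate 2. The 5 LPS libraries left out of it were all titled male. Since the sexes were averaged, the male part of each P4 change in that fit rests on 1 library. Its counts and lost calls therefore cannot separate neutrophil RNA from the loss of libraries. Under the covariate P4 minus saline turned negative for 1100001G20Rik (-0.44), Chi3l3 (-0.97), Ly6c2 (-0.50), Mmp8 (-0.11), Retnlg (-1.55), S100a8 (-0.70) and S100a9 (-0.38), and LPS minus saline for Camp (-1.21), Chi3l3 (-0.76), Lgals3 (-0.11), Mmp9 (-0.082) and S100a8 (-0.075). Among named genes past the threshold in the main fit or under another scaling, none changed direction with that scaling. Changes past the threshold in neither fit were not examined for direction. With the replicate block, 5674, 5295 and 1887 genes were called, and no count moved by over 1.5 times. The numbers were not taken to pair libraries, since same-numbered libraries correlated at -0.328 to 0.223 for P4 and LPS, -0.622 to 0.169 for LPS and saline, and -0.295 to 0.456 for P4 and saline, where 11 of 16 same-numbered and 31 of 80 other correlations were over 0.1. Leaving out 1 library ended some calls of single genes. For P4 minus saline these included Cxcl9 (male saline 2), Tlr2 (male P4 4), Msr1 (female P4 4, male P4 2) and Mt2 (female P4 1, male P4 2, male saline 5). Tek (2 libraries), Cxcl2, Cd274 and Slc2a3 (5 libraries each) and Bcl3 (13) were others. For LPS minus saline they included Ly6a (female LPS 6), Mmp9 (4), Btg2 and Havcr2 (8 each), Prc1 (16), Camp (17) and Lgals3 (25). For LPS minus P4 they included Maff (6), Pdk4 and Pkm2 (11 each), Ptges (15), Fcgr4 (20), Cybb (21) and Nos2 (23). Lost calls of further named genes are not listed. Depth limits genes at a few CPM most, and the LPS libraries had the lowest median total, 970080.0 counts.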
